A study of Mus musculus with 6 samples.

Results

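The genes described here encode the nuclear share of the mitochondrial respiratory chain and of ATP synthase. They were chosen by symbol: names that start with Nduf and the letter a, b, c, s or v, names that start with Cox and a number from 4 to 8, with Atp5 or with Uqcr, and Sdha to Sdhd. The rule matched 94 of the 32285 genes in each matrix. Complex I (NADH dehydrogenase) accounted for 45 of them, of which 7 were core subunits, 29 accessory subunits, 8 assembly factors and 1 a gene named as a pseudogene, Ndufb1-ps. Complex II (succinate dehydrogenase) had 4 members, complex III (cytochrome bc1) had 8, complex IV (cytochrome c oxidase) had 20, and complex V (ATP synthase) had 17. Ndufa4 and Ndufa4l2 were counted under complex IV, where their proteins are now placed, and Cox7a2l, a factor that joins complexes into supercomplexes, was counted there but not as a subunit. The 84 subunits were set beside the 13 subunits that mitochondrial DNA encodes, whose symbols start with mt-.

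Complexes I to IV pass electrons from NADH and succinate to oxygen and, except complex II, pump protons across the inner mitochondrial membrane, and complex V uses the proton gradient to make ATP. Every complex but complex II is built from products of both genomes, so nuclear and mitochondrial transcripts must be brought together in one assembly. T cells lean on this machinery while quiescent and again when activated cells divide and differentiate. T follicular helper (Tfh) cells are the CD4+ T cells that help B cells in the germinal centres of tissues such as Peyer's patches.

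The cells were ovalbumin-specific OT-II CD4+ T cells from OTII+/+RAG-/- donors, moved into CD45.1 WT host mice that drank 1.5% ovalbumin in water for 7 days; on day 8 the CD45.2+CD45.1-CD4+CD8-TCRβ+ donor cells were sorted from Peyer's patches, and single-cell 3′ libraries were made. The mutant group (libraries mutant 1 and mutant 2) had TgfbrIWT/mut donor cells, heterozygous for the M318R allele knocked into Tgfbr1, the type I TGF-beta receptor, and the WT group (libraries WT 1 and WT 2) had WT donor cells; the hosts of both groups were WT, and the ages of these mice are not given in the sources used here. Kept T cells numbered 862 and 177 in the mutant libraries, with 7489171 and 1604770 UMIs (unique molecular identifiers, each standing for 1 captured transcript), against 1273 and 616 cells in the WT libraries, with 11861908 and 5445268 UMIs. The labels do not say that the libraries came from separate animals, so every p-value measures the spread between libraries, which may be technical.

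Most kept cells carried transcripts that fit the sort gate: Cd3e had a UMI in 98.4% and 98.9% of kept cells of the mutant libraries and in 99.7% and 99.5% of those of the WT libraries, and Cd8a was found in at most 0.565% of cells of any library. Cd8b1 had a UMI in 2.90% and 1.69% of kept cells of the mutant libraries, against 5.50% and 3.73% of those of the WT libraries. Epithelial and B cell clusters were left out, and the 12 epithelial markers still summed to 15.9 and 23.1 CPM (UMIs per 1000000 UMIs of the library) in mutant libraries, against 10.4 and 15.6 CPM in WT libraries. Of these markers Cdh1 was at 0 in all 4 libraries, and Epcam had a UMI in 3.60% and 2.82% of kept cells of mutant libraries, against 3.77% and 3.57% of those of WT libraries. The 9 B cell markers summed to 292 and 320 CPM in mutant libraries, against 168 and 219 CPM in WT libraries. Their part in the results was not tested. Cluster 9, a group of shallow cells led by Lars2 and Ahnak with a median of 3333 UMIs, made up 6.96% and 14.1% of the kept cells of mutant libraries, against 1.02% and 3.73% of those of WT libraries. The WT matrices hold 3 antibody tags and the mutant matrices none, so tag handling and genotype cannot be told apart. Of 62 barcode matches between libraries, 4 were among kept cells.

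The promoters of the members are shown first because most of the genes varied together across T cell states. RefSeq windows on GRCm38.p6, from 250 bases before to 50 bases after the start, were found by symbol for 75 of the 94 members. For each complex an abundant member whose RefSeq start lay within 5 bases of the GENCODE start is printed, and complex II had none. Some members were left out of the choice, so Ndufa7 need not be the most abundant of complex I within that distance. Atp5l is added as the most abundant member within that distance that had the NRF1 core. Only the 250 bases before the start are given, 5′ to 3′ on the strand of the gene, with matches to the searched words in capitals. The windows are chr17:33824322-33824571 on the plus strand for Ndufa7 and, on the minus strand, chr4:116075071-116075320 for Uqcrh, chr19:7217617-7217866 for Cox8a, chr2:174464102-174464351 for Atp5e and chr9:44920743-44920992 for Atp5l.
Ndufa7: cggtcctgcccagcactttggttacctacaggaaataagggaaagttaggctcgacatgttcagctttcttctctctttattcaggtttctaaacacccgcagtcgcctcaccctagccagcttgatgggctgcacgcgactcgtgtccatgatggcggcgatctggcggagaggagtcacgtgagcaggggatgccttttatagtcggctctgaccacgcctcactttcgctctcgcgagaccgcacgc
Uqcrh: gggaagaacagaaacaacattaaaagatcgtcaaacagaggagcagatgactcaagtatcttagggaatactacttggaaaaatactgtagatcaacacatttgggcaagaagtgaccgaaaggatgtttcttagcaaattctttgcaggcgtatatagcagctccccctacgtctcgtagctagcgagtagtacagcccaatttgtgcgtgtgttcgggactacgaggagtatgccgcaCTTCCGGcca
Cox8a: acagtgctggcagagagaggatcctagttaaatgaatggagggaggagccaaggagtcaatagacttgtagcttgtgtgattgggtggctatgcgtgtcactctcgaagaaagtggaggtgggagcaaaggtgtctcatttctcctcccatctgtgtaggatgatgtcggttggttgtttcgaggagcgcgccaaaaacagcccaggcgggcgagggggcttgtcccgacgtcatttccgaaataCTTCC
Atp5e: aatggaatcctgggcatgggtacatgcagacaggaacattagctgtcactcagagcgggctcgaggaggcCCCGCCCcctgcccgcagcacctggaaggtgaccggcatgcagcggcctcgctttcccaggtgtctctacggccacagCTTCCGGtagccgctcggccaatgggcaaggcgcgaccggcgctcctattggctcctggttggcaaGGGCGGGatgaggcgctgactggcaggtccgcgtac
Atp5l: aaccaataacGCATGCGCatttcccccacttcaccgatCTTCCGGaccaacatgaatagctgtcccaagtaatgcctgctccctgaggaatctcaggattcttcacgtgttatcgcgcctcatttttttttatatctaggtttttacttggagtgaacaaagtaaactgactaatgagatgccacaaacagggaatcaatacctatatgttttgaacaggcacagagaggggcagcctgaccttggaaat
The ETS core CCGGAAG, read here from the other strand, lay at position -10 from the start in Uqcrh, at -5 in Cox8a (its last letters fall past the start), at -102 in Atp5e and at -212 in Atp5l. Atp5l had the NRF1 core GCATGCGC at -240, Atp5e had the GC box GGGCGGG at -180 and -36, and Ndufa7 had none of the words. Words were searched on both strands, and a stretch could count for more than 1 of them. The NRF1 core was in the windows of 12 of the 75 members (16%), against 3.05% of 27025 genes with a window and 6.69% of the 8252 such genes that were tested in these T cells. The YY1 core AAGATGGC was in 13.3% of members, 3.19% of all genes and 6.01% of tested genes. Of its 10 members, 8 belonged to complex I, which supplied 39 of the 75 members with a window. The ETS core was in 25.3% of members against 9.93% of all genes and 23.3% of tested genes. The CRE TGACGTCA was in 5.33% of members against 3.89% of tested genes, and the GC box in 36% against 52.6%. A match is a description of letters only.

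The nuclear-encoded subunits were abundant in these T cells, and their sums differed by complex. Each molecule gives 1 tag at its 3′ end, so CPM is not divided by gene length. Summed over the 84 subunits, they made up 1.99% and 1.79% of all UMIs in the mutant libraries, against 2.10% and 1.99% in the WT libraries. Mutant 2 was the lowest library, and mutant 1 and WT 2 were level. Complex V held the largest nuclear sum, 0.671% and 0.611% of UMIs in mutant libraries against 0.726% and 0.679% in WT libraries. Complex I followed with 0.560% and 0.503% in mutant libraries against 0.579% and 0.552% in WT libraries, although it has the most subunits. Complex IV had 0.518% and 0.466% in mutant libraries against 0.541% and 0.516% in WT libraries. Complex III had 0.214% and 0.183% against 0.222% and 0.213% in mutant and WT libraries. Complex II, the smallest, had 0.0278% and 0.0259% in mutant libraries against 0.0299% and 0.0286% in WT libraries. The smallest library sums per complex were thus all in mutant 2. A typical kept cell carried a median of 159 and 142 nuclear subunit UMIs in mutant libraries and 173 and 157 in WT libraries, and no kept cell had none. In a sum over cells, fewer cells of a type and less RNA per cell cannot be told apart.

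Of the 94 genes, 76 averaged at least 50 CPM, and 87 passed the filter on low counts over all kept T cells. The 7 that did not were all genes of complex IV, most of them known as isoforms of particular tissues. Cox6a2 and Cox8c, the heart and testis forms, Cox7b2 and Ndufa4l2 had 0 UMIs in all 4 libraries, which allows at most 0.114 CPM (3 UMIs over the 4 libraries together). Cox4i2 had 3 UMIs in all, Cox8b 1 and Cox6b2 8. Cox7a1, the heart and muscle isoform, passed with 13 and 3 UMIs in mutant libraries against 20 and 9 in WT libraries. The ubiquitous partners stood far above them: Cox4i1 had 737 and 578 CPM in mutant libraries against 718 and 668 CPM in WT libraries, and Cox6a1 had 207 and 218 CPM against 199 and 184 CPM in mutant and WT libraries.

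**Figure D1:**
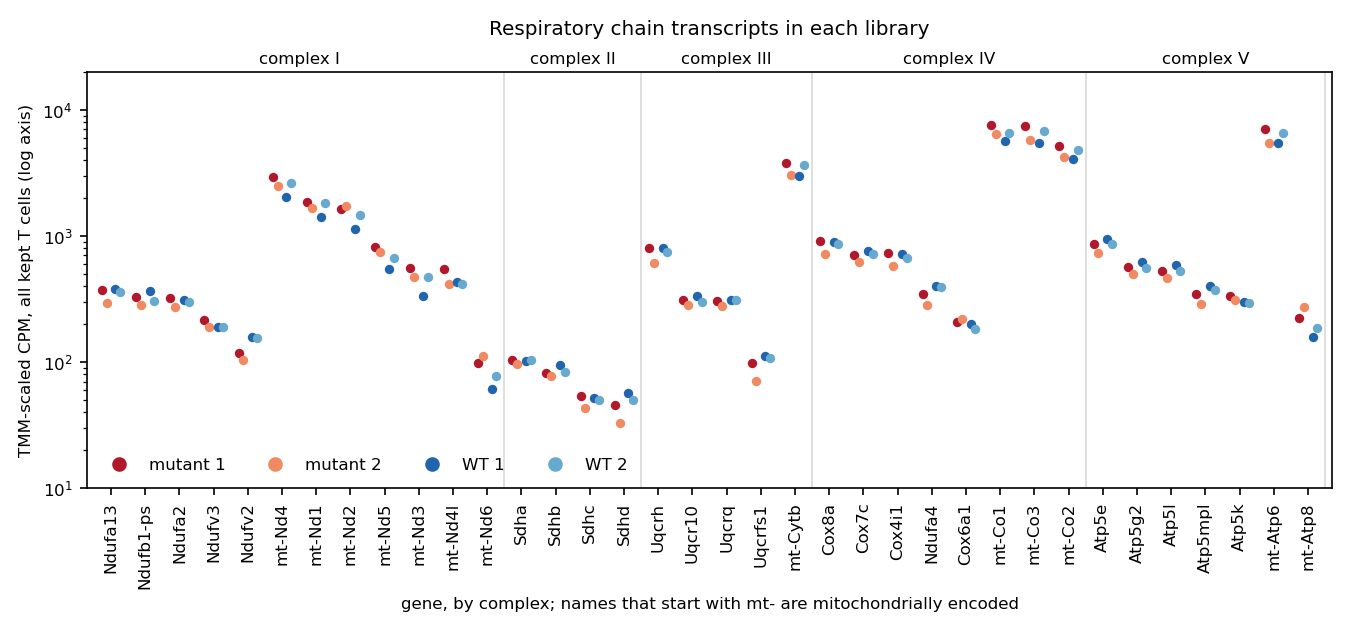
TMM-scaled CPM (log axis) of the 3 most abundant members of each complex, the members with the largest difference in each direction and all mt-encoded subunits, 1 point per library, with mutant libraries left of WT libraries. The mt-encoded genes of complexes III and IV stand at 2993 CPM or more in every library, while no nuclear-encoded gene shown passes 948 CPM.

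No nuclear-encoded member and no mt-encoded subunit passed the test between mutant and WT over all kept T cells (edgeR's quasi-likelihood test on UMIs summed per library, Benjamini-Hochberg adjusted p at or under 0.05): 0 of 87 and 0 of 13, where 1.16% of the 10580 genes tested did (0.681% higher and 0.482% lower in mutant). At an unadjusted p under 0.05 there were 4 of 87 members, all lower in mutant libraries, where 5.53% of all tested genes had such a p and were lower. There were 5 of 13 mt-encoded subunits, all higher, where 6.68% of all tested genes were. DESeq2 called none of them either. The members leaned low without passing: 10 of the 87 had a log2 fold change (mutant minus WT) above 0, where 49.1% of all tested genes did, and the median was -0.13 over the 77 tested subunits against -0.0067 over all tested genes. Both mutant libraries lay below both WT libraries for 28 of the 77 subunits and above for 3, where this holds for 22.9% and 22.3% of all tested genes. The lean was smaller without mutant 2: then 57 of 87 members were below 0 and the subunit median was -0.031, and without mutant 1 it was -0.27. Without cluster 9 the subunit median was -0.087, with the epithelial cluster kept it was -0.057, and under other scalings it lay between -0.13 and -0.11.

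In complex I the core subunit Ndufv2 (chromosome 17, 66078638 to 66101559, GRCm38), which carries an iron-sulfur cluster of the arm that takes electrons from NADH, had the largest difference of any nuclear member. It had 118 and 103 CPM in mutant libraries against 158 and 155 CPM in WT libraries. The groups did not overlap, and the log2 fold change was -0.48 ± 0.14 (SE, edgeR adjusted p = 0.108, ranging from 0.0486 without mutant 1 to 1.00 over the alternatives). Of the 36 subunits, 31 had values below 0 with a median of -0.10, and of the 8 assembly factors, 6 did with a median of -0.074. Ndufv3, an accessory subunit beside Ndufv2 in the same arm, had the most positive value of the complex, at 217 and 188 CPM in mutant libraries against 190 and 188 CPM in WT libraries (log2 0.11 ± 0.14, adjusted p = 0.791), and its sign turned without mutant 1. The most abundant members, Ndufa13, an accessory subunit needed for assembly, and Ndufa2, overlapped between the groups: Ndufa13 had 373 and 295 CPM in mutant libraries against 381 and 359 CPM in WT libraries, and Ndufa2 had 323 and 273 CPM against 310 and 299 CPM. Ndufb1-ps, with 330 and 281 CPM in mutant libraries against 366 and 302 CPM in WT libraries, may share reads with other copies, and how the authors counted such reads is not given in the sources used here.

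In complex II all 4 subunits had values below 0 (median -0.10). The flavoprotein Sdha, which oxidises succinate, had 104 and 96.3 CPM in mutant libraries against 102 and 104 CPM in WT libraries. The membrane anchor Sdhd differed most, with 45.2 and 33.1 CPM in mutant libraries against 56.3 and 50.05 CPM in WT libraries (log2 -0.38 ± 0.17, unadjusted p = 0.0353, edgeR adjusted p = 0.363). The groups of Sdhd did not overlap, and neither did those of the iron-sulfur subunit Sdhb, at 81.4 and 77.6 CPM in mutant libraries against 94.8 and 83.5 CPM in WT libraries. Sdhc, the other anchor, overlapped.

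In complex III all 8 subunits had values below 0 (median -0.11). Uqcrfs1, the Rieske iron-sulfur protein that passes electrons towards cytochrome c, had 97.7 and 70.4 CPM in mutant libraries against 111 and 108 CPM in WT libraries (log2 -0.34 ± 0.15, unadjusted p = 0.0417, edgeR adjusted p = 0.382). Uqcrb, which lies near the ubiquinone site, had 234 and 159 CPM in mutant libraries against 261 and 238 CPM in WT libraries (log2 -0.32 ± 0.16, adjusted p = 0.456). Mutant 2 was the low library for both, and without mutant 1 Uqcrb reached log2 -0.66 with an edgeR adjusted p of 0.0348. The hinge protein Uqcrh, the most abundant, had 800 and 609 CPM in mutant libraries against 802 and 753 CPM in WT libraries. The small subunits Uqcr10 and Uqcrq had log2 values of -0.075 and -0.088, and Uqcr11 had the least negative value of the complex at -0.050.

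In complex IV, 10 of the 12 tested subunits had values below 0 (median -0.12). Ndufa4 had 348 and 281 CPM in mutant libraries against 402 and 393 CPM in WT libraries (log2 -0.33 ± 0.15, unadjusted p = 0.0362, edgeR adjusted p = 0.365), and its groups did not overlap. Cox6a1 lay the other way, with both mutant libraries above both WT libraries (log2 0.15 ± 0.13, adjusted p = 0.705). The small subunit Cox8a, the most abundant of the complex, had 915 and 723 CPM in mutant libraries against 898 and 859 CPM in WT libraries, and Cox7c had 707 and 622 CPM against 759 and 716 CPM. Cox7a2 and Cox7a2l, which are related in sequence, had log2 values of -0.15 and -0.098.

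In complex V, 16 of the 17 subunits had values below 0, and the median of -0.16 was the lowest of the 5 complexes. The largest difference was that of the small membrane subunit Atp5mpl at 347 and 288 CPM in mutant libraries against 398 and 375 CPM in WT libraries (log2 -0.28 ± 0.14, edgeR adjusted p = 0.470). Atp5e, the epsilon subunit of the rotor stalk and the most abundant member of all, had 871 and 731 CPM in mutant libraries against 948 and 870 CPM in WT libraries. The exception was Atp5k, a subunit of the membrane part that helps ATP synthases pair, at 332 and 309 CPM in mutant libraries against 302 and 291 CPM in WT libraries (log2 0.11 ± 0.14, adjusted p = 0.780). Atp5g1, Atp5g2 and Atp5g3 are 3 genes for the same mature protein of the c ring. Atp5g2 supplied the most, 570 and 498 CPM in mutant libraries against 626 and 557 CPM in WT libraries. Atp5g1 had 301 and 244 CPM in mutant libraries against 335 and 311 CPM in WT libraries, and Atp5g3 had 238 and 241 CPM against 296 and 263 CPM. The log2 values of the 3 genes lay between -0.23 and -0.15.

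**Figure D2:**
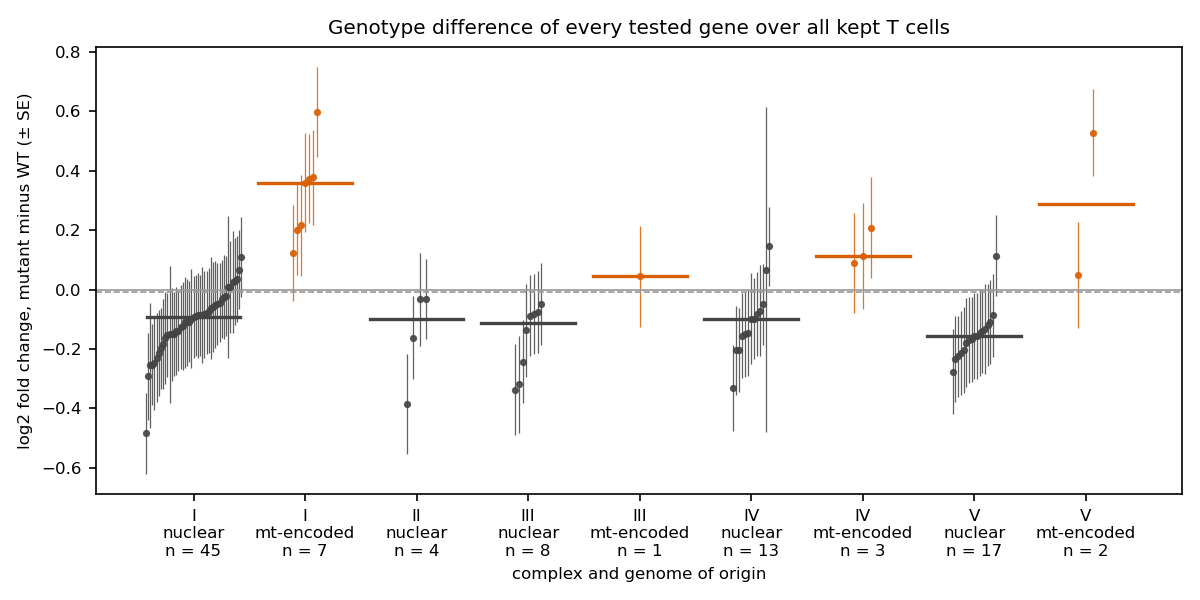
Log2 fold change, mutant minus WT, of each tested gene over all kept T cells, by complex and genome of origin, with SE bars; horizontal bars are medians and the dashed line is the median of all tested genes. Nuclear-encoded genes lie between -0.48 and 0.15 and mt-encoded genes between 0.045 and 0.60, and none passed the test.

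The mt-encoded subunits leaned the other way, and WT 1 was the library that stood low. Their sum was 3.90% and 3.41% of UMIs in mutant libraries, against 2.93% and 3.59% in WT libraries, so the groups overlapped. All 13 had a log2 fold change above 0 with a median of 0.21, but 5 of the 13 turned below 0 without WT 1, 5 without mutant 1, and 2 when clusters were given equal shares. The complex I gene mt-Nd6, the one subunit gene on the other strand of mitochondrial DNA (13552 to 14070), had 99.0 and 111 CPM in mutant libraries against 61.3 and 77.2 CPM in WT libraries (log2 0.60 ± 0.15, edgeR adjusted p = 0.0678, range over the alternatives 0.0165 to 1.00). The complex V gene mt-Atp8 (7766 to 7969) had 223 and 273 CPM in mutant libraries against 157 and 185 CPM in WT libraries (log2 0.53 ± 0.15, adjusted p = 0.105, range 0.00812 to 1.00). The groups did not overlap for either gene. The end of mt-Nd6 overlaps that of mt-Nd5 on the opposite strand, so its value is uncertain. Reads of mt-Atp8 cannot be told from those of the overlapping mt-Atp6 with certainty, nor reads of mt-Nd4l from those of mt-Nd4.

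Among the other complex I genes, mt-Nd2 had 1640 and 1742 CPM in mutant libraries against 1138 and 1464 CPM in WT libraries, and mt-Nd5 had 821 and 743 CPM against 544 and 666 CPM (unadjusted p = 0.0300 and 0.0243, edgeR adjusted p = 0.340 and 0.312). For mt-Nd3 the values were 557 and 473 CPM in mutant libraries against 335 and 471 CPM in WT libraries (adjusted p = 0.396). The genes mt-Nd1, mt-Nd4 and mt-Nd4l overlapped, with log2 values of 0.12 to 0.22. In complex IV, mt-Co1, which holds the oxygen-reducing centre, had 7658 and 6501 CPM in mutant libraries against 5671 and 6583 CPM in WT libraries, and mt-Co2 and mt-Co3 overlapped likewise. In complex III, mt-Cytb had 3802 and 3053 CPM in mutant libraries against 2993 and 3654 CPM in WT libraries. In complex V, mt-Atp6, part of the proton channel, had 7035 and 5420 CPM in mutant libraries against 5501 and 6539 CPM in WT libraries. For these abundant genes the order was mutant 1 first and WT 1 or mutant 2 last, not an order by genotype.

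Per UMI of nuclear subunits there were 1.96 and 1.91 UMIs of mt-encoded subunits in mutant libraries, against 1.40 and 1.81 in WT libraries, and the mean ratio was 1.21 times as high in mutant libraries. It was 1.14 times as high without cluster 9 and 1.07 times without WT 1. The cap on mitochondrial UMIs removes cells rich in mt-encoded transcripts, which limits the mt-encoded sums. Of all barcodes, 41.4% and 22.0% in mutant libraries were over the cap, against 25.5% and 37.4% in WT libraries. At a cap of 20% the ratio was 2.25 and 2.19 in mutant libraries, against 1.44 and 2.02 in WT libraries. At a cap of 5% it was 1.63 and 1.66 in mutant libraries, against 1.30 and 1.56 in WT libraries. The smallest two-sided p that an exact permutation of 2 against 2 libraries can give is 0.333, so no p is attached to such sums. The ratio was highest in complex IV, at 3.84 and 3.68 in mutant libraries against 2.76 and 3.49 in WT libraries. In complex V it was 1.06 and 0.965 in mutant libraries against 0.766 and 0.984 in WT libraries. In complex I, where 36 nuclear genes face 7 mt-encoded ones, it was 1.49 and 1.58 in mutant libraries against 1.01 and 1.37 in WT libraries. WT 1 was the low library in all 4 complexes, and WT 2 lay above mutant 2 in complex V alone.

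**Figure D3:**
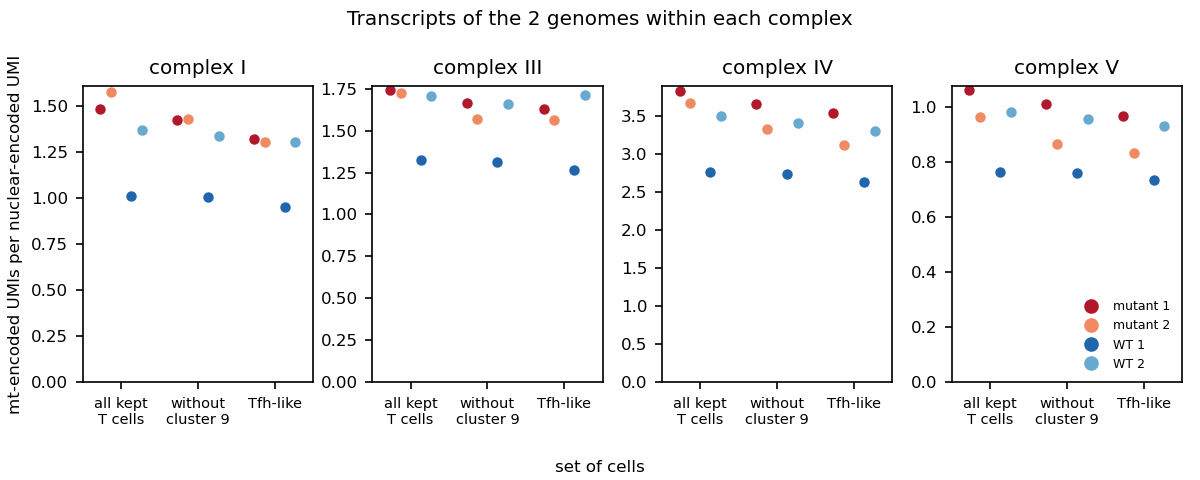
UMIs of mt-encoded subunits per UMI of nuclear-encoded subunits of the same complex, 1 point per library, over all kept T cells, without cluster 9 and within Tfh-like cells, with mutant libraries left of WT libraries. WT 1 is the lowest library in every panel, and WT 2 lies near the mutant libraries.

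Across T cell states the nuclear subunits varied more than between the genotypes. States are clusters named from marker genes, and the members were left out of the clustering, but the comparison of clusters carries no test. Tfh-like cells (Ascl2, Tox2 and Sostdc1 among their leading genes) had the highest share among the 4 states with at least 20 cells in every library: 2.27% and 2.22% of UMIs in mutant libraries against 2.42% and 2.31% in WT libraries. Cluster 6 (led by Jchain, Gpm6b and Lgals7) had 2.05% and 2.07% in mutant libraries against 2.28% and 2.12% in WT libraries. Of clusters 0 and 5, which make up the Tfh-like class, cluster 5 alone lay below cluster 6 in every library. Its shares were 1.86% and 2.05% in mutant libraries against 2.04% and 1.90% in WT libraries. Recently stimulated-like cells, marked by Nr4a1 and Nr4a3 in both of their clusters, by Egr2 and Egr3 in cluster 1 and by Tnfrsf9 and Myc in cluster 2, had 1.78% and 1.70% in mutant libraries against 2.17% and 1.91% in WT libraries. Cluster 3 (led by Id2, Rflnb and Ccr7) had the lowest, 1.55% and 1.46% in mutant libraries against 1.73% and 1.67% in WT libraries. The order of the 4 states was the same in all 4 libraries, and Tfh-like cells averaged 1.44 times the share of cluster 3. Ribosomal protein transcripts were 21.4% of UMIs in Tfh-like cells and 29.7% in cluster 6 on average; among UMIs that were neither mt-encoded nor ribosomal, cluster 6 averaged 3.17 ± 0.165% and Tfh-like cells 3.08 ± 0.126% (SD, n = 4), a gap within the spread between libraries, and mutant 1 had the higher value in Tfh-like cells.

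Smaller groups of cells were not compared gene by gene. Naive or memory-like cells, marked by Klf2, Ccr7 and S1pr1, had shares like those of cluster 3, 1.57% and 1.42% in mutant libraries against 1.72% and 1.59% in WT libraries. Cytotoxic-like cells had 1.72% and 1.56% in mutant libraries against 2.01% and 1.75% in WT libraries. Cluster 10 (led by Gzmb, Cxcr6 and Ccr9) was higher, at 2.18% and 2.03% in mutant libraries against 2.24% and 2.21% in WT libraries. It had 17 and 2 cells in mutant libraries against 58 and 15 in WT libraries. Cluster 9 had 0.619% and 0.680% in mutant libraries against 0.724% and 0.744% in WT libraries, with 7.32% and 5.72% mt-encoded subunits against 7.23% and 7.38%. Barcodes over the cap of 10% mitochondrial UMIs resembled cluster 9, at 0.655% and 0.522% nuclear subunits in mutant libraries against 0.691% and 0.566% in WT libraries. The left-out epithelial and B cell clusters were richer than any T cell state, at 3.73% and 3.77% in mutant libraries against 2.52% and 3.02% in WT libraries. In WT 1, however, cluster 0 alone, a part of the Tfh-like class, was higher at 2.62%.

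**Figure D4:**
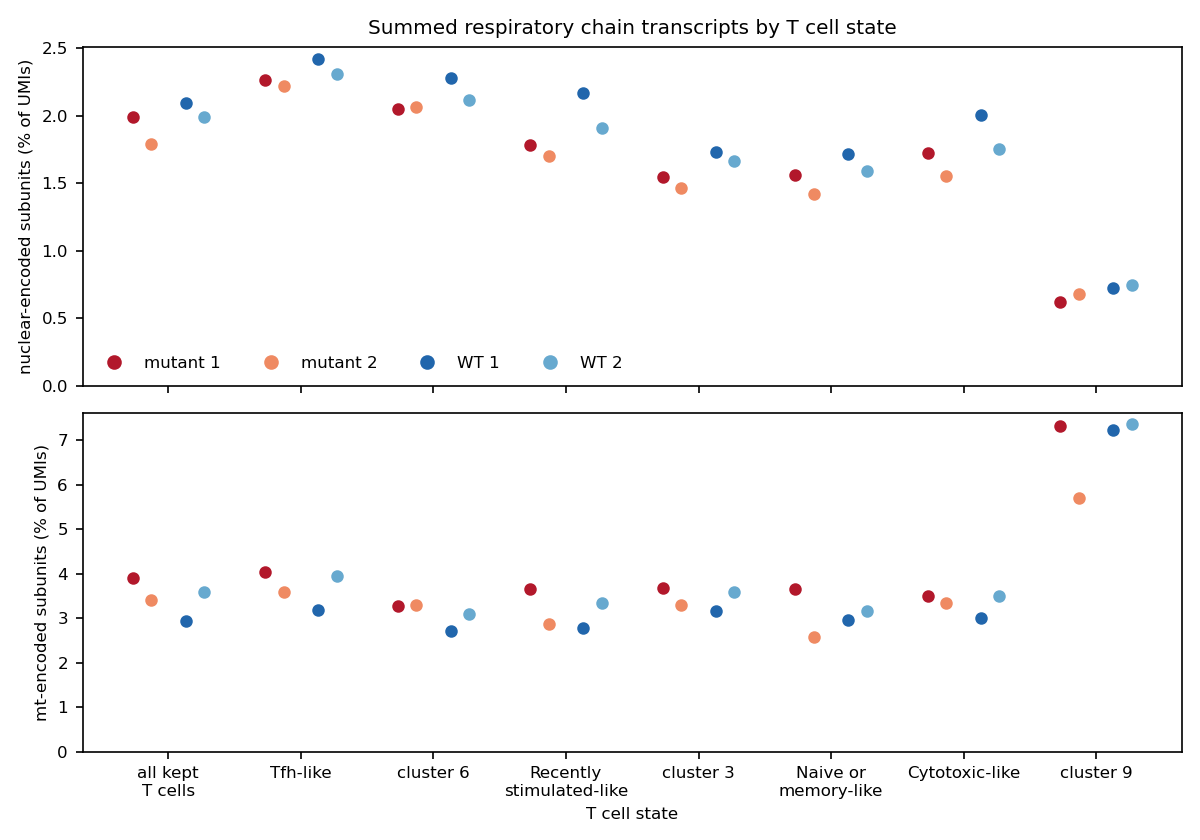
UMIs of nuclear-encoded subunits (upper panel) and of mt-encoded subunits (lower panel) as a percent of all UMIs, by T cell state and library, with mutant libraries left of WT libraries. Tfh-like cells are high and cluster 3 low in the upper panel, and cluster 9 is the lowest above and the highest below.

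Gene by gene, 62 of the 76 members with at least 50 CPM had their highest state mean in Tfh-like cells and the other 14 in cluster 6, and 68 were lowest in cluster 3. Of the 62, 61 were higher in Tfh-like cells than in their lowest state in all 4 libraries, and 26 were higher there than in each of the other 3 states in all 4 libraries. The ratio of the highest to the lowest state mean had a median of 1.50 and a range of 1.16 to 2.28. Ndufc1, a small accessory subunit of complex I, varied most. It had 213 and 214 CPM in Tfh-like cells of mutant libraries and 214 and 214 CPM in those of WT libraries, and in cluster 3 it had 93.5 and 90.2 CPM in mutant libraries and 100.3 and 91.3 CPM in WT libraries. The states did not overlap in any library, and within a state the genotypes were close. Atp5g1 varied 1.80-fold, with a mean of 368 ± 31.6 CPM in Tfh-like cells against 204 ± 10.7 CPM in cluster 3 (SD, n = 4 libraries). Of its sister genes, Atp5g3 varied 1.62-fold and Atp5g2 1.32-fold. Sdhb varied 1.75-fold and its partner Sdha 1.20-fold. In complexes III and IV the widest were Uqcrb at 1.73-fold and Ndufa4 at 1.63-fold, and Cox4i1 varied least of all at 1.16-fold.

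Some members broke the order. Cox7a2l, the supercomplex factor, was the one gene with its lowest mean in Tfh-like cells, at 325 and 287 CPM in mutant libraries and 256 and 289 CPM in WT libraries. In cluster 6 it had 410 and 431 CPM in mutant libraries and 419 and 454 CPM in WT libraries, and cluster 3 lay close to that with a mean of 403 ± 26.4 CPM (SD, n = 4). Its relative Cox7a2 followed the common order, with 328 ± 7.59 CPM in Tfh-like cells and 212 ± 34.6 CPM in cluster 3. Uqcrh peaked in cluster 6 at 943 ± 20.9 CPM, above 757 ± 62.1 CPM in Tfh-like cells, and Atp5l did so at 638 ± 25.2 CPM above 559 ± 50.2 CPM. Cluster 6 of mutant 2 had 22 cells with a median of 1318.5 UMIs, so its values there are the least precise.

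**Figure D5:**
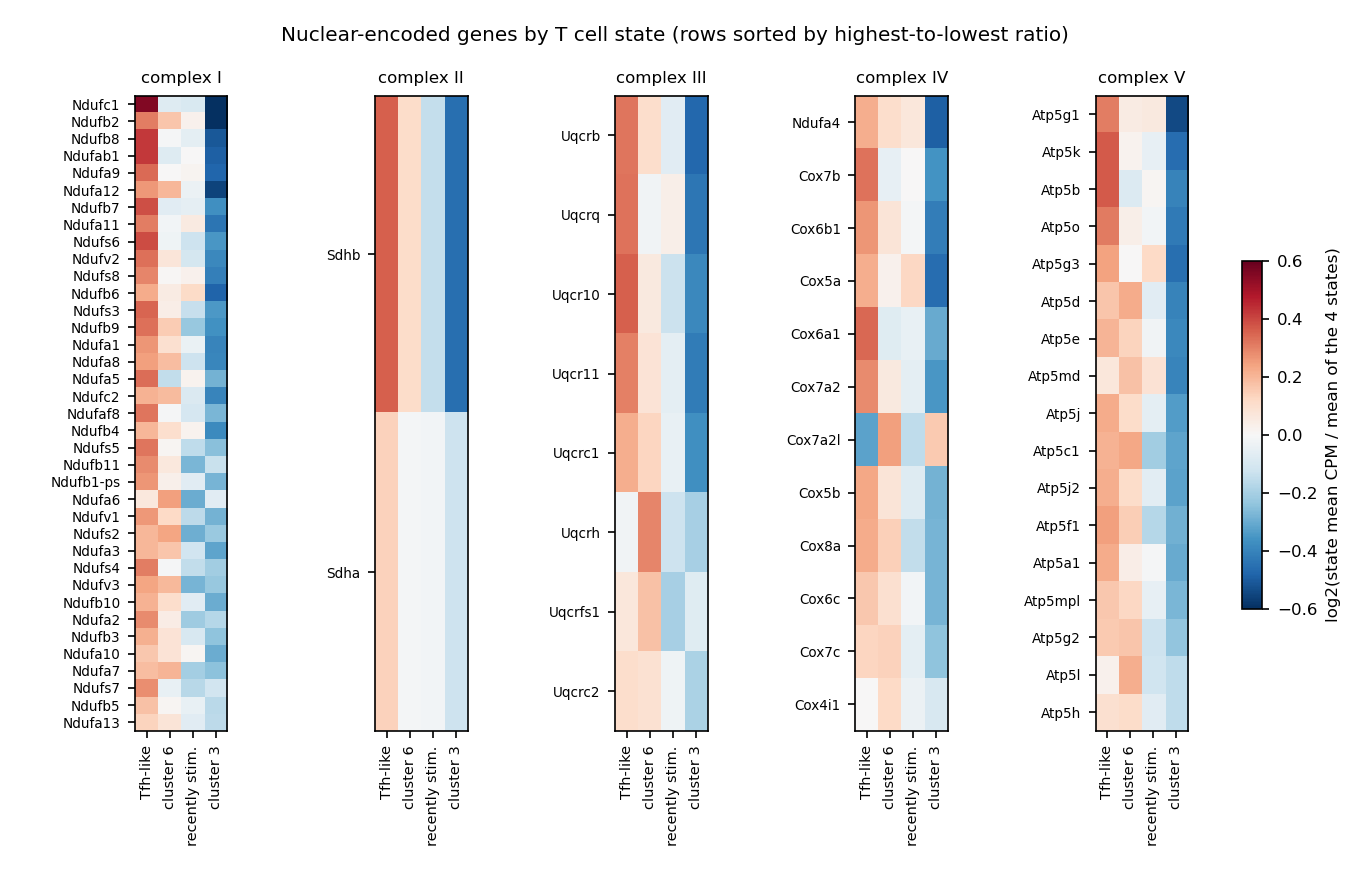
Mean CPM over the 4 libraries of each member with at least 50 CPM in each of 4 T cell states, as log2 of its ratio to the mean of the 4 states, by complex. Most rows run from red in Tfh-like cells to blue in cluster 3, and Cox7a2l runs the other way.

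The mt-encoded subunits had another order across states. Of the 13, 11 were highest in Tfh-like cells and 9 were lowest in cluster 6, and their ratios of highest to lowest state mean ran from 1.12 to 1.43. Cluster 3, the poorest in nuclear subunits, was not poor in mt-encoded ones, which made up 3.43 ± 0.243% of its UMIs against 3.70 ± 0.385% in Tfh-like cells (SD, n = 4). It therefore had the highest ratio of the 2 genomes among the 4 states, 2.37 and 2.26 in mutant libraries against 1.82 and 2.15 in WT libraries, while cluster 6 had the lowest, 1.604 and 1.599 in mutant libraries against 1.19 and 1.47 in WT libraries. Across single cells the nuclear and mt-encoded shares had a Spearman rho of -0.25 over 862 cells and -0.15 over 177 cells in the mutant libraries and -0.20 over 1273 cells and -0.15 over 616 cells in the WT libraries. Here the nuclear share was taken of the UMIs that were not mitochondrial, and the mt-encoded share of all UMIs. The nuclear share went with the depth of the cell, with a rho of 0.49 and 0.42 in mutant libraries and 0.35 and 0.30 in WT libraries. The mt-encoded share went against depth, with a rho of -0.38 and -0.44 in mutant libraries and -0.27 and -0.31 in WT libraries. The part of depth in the negative rho between the 2 shares was not tested.

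Within each of the 4 states the summed nuclear share of both mutant libraries lay below that of both WT libraries, although over all kept T cells the groups overlapped. Among UMIs neither mt-encoded nor ribosomal, the mutant libraries still lay below in recently stimulated-like cells, cluster 3 and cluster 6. The Tfh-like groups then overlapped, at 3.06% and 2.95% in mutant libraries against 3.25% and 3.05% in WT libraries. Over all kept T cells both mutant libraries, at 2.74% and 2.44%, then lay below both WT libraries, at 3.00% and 2.77%. Tfh-like cells were 44.4% and 28.8% of the kept cells in mutant libraries against 18.2% and 31.7% in WT libraries. The mutant mean was 0.950 times the WT mean in Tfh-like cells, 0.935 in cluster 6, 0.886 in cluster 3 and 0.854 in recently stimulated-like cells. No nuclear-encoded member and no mt-encoded subunit passed the test in any of these states: 0 of 86 tested members in Tfh-like cells (0.654% of all tested genes passed, 0.447% higher and 0.207% lower), 0 of 86 in recently stimulated-like cells (0.481%, with 0.141% higher and 0.341% lower), 0 of 82 in cluster 3 (0.219%, with 0.135% higher and 0.0843% lower) and 0 of 84 in cluster 6 (0.404%, with 0.307% higher and 0.0961% lower), by edgeR's quasi-likelihood test. The members with an unadjusted p under 0.05 were all lower in mutant libraries: 3 of 86 in Tfh-like cells (3.73% of all tested genes had such a p and were lower), 15 of 86 in recently stimulated-like cells (4.98%), 5 of 82 in cluster 3 (3.91%) and 3 of 84 in cluster 6 (3.40%). The mt-encoded subunits with such a p were all higher: 2 of 13 in Tfh-like cells (4.88% of all tested genes), 2 in recently stimulated-like cells (4.96%), 4 in cluster 3 (3.98%) and 8 in cluster 6 (4.67%). In Tfh-like cells and cluster 6 the share of members was thus close to that of all genes. By DESeq2 the members and mt-encoded subunits called were also 0 in each state.

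The Tfh-like class joins clusters 0 and 5, and cluster 0 held 293 of 383 and 40 of 51 of its cells in mutant libraries, against 132 of 232 and 119 of 195 in WT libraries. Cluster 0 alone had 2.36% and 2.26% nuclear subunits in mutant libraries against 2.62% and 2.51% in WT libraries, and cluster 5 alone had 1.86% and 2.05% against 2.04% and 1.90%. In the class as a whole 60 of 86 members were below 0 with a median of -0.029, against -0.0028 over all tested genes, and in cluster 0 alone 74 of 86 were, with a median of -0.11. Ndufv2 again had the lowest p of the members, with 144 and 142 CPM in mutant libraries against 204 and 185 CPM in WT libraries (log2 -0.40 ± 0.14, edgeR adjusted p = 0.318). The gene mt-Atp8 came nearest to the threshold, with 226 and 300.4 CPM in mutant libraries against 167 and 181 CPM in WT libraries (log2 0.59 ± 0.14, edgeR adjusted p = 0.0509). With the replicate number as a block and with no filter on low counts it passed (edgeR adjusted p = 0.0105 and 0.0356). Under the other scalings, by DESeq2 and in cluster 0 alone it did not. Its log2 fold change was 0.77 without mutant 1 and 0.45 without mutant 2. In recently stimulated-like cells 80 of 86 members were below 0 with a median of -0.22 (-0.13 in cluster 1 alone), and Ndufv2 had 82.9 and 111 CPM in mutant libraries against 156 and 148 CPM in WT libraries (log2 -0.74 ± 0.20, edgeR adjusted p = 0.126, and 0.0161 without mutant 2). The class joins cluster 1 with cluster 2, and cluster 2 held 28 and 8 of its cells in mutant libraries against 244 and 61 in WT libraries. Cluster 2 was the richer of the pair, at 2.10% and 2.03% nuclear subunits in mutant libraries against 2.29% and 2.13% in WT libraries, where cluster 1 had 1.73% and 1.56% against 1.96% and 1.75%. In cluster 1 alone no member passed either, nor did any other gene, and 356 genes had an unadjusted p under 0.05.

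Whether the genotype difference itself differed between Tfh-like and recently stimulated-like cells was tested in 1 edgeR fit over both states, with a term for each library. None of 86 members passed (0.668% of 9281 genes tested did, 0.356% with the effect higher in Tfh-like cells and 0.312% lower), and 15 had an unadjusted p under 0.05, all with the effect higher in Tfh-like cells, where 4.32% of all tested genes had such a p and direction. Ndufs8, a core complex I subunit with iron-sulfur clusters near the ubiquinone site, came nearest: its log2 fold change was 0.18 ± 0.15 in Tfh-like cells and -0.58 ± 0.20 in recently stimulated-like cells, a difference of 0.80 ± 0.22 (edgeR adjusted p = 0.100, and 0.0172 without mutant 2). The median difference over members was 0.20, against 0.014 over all tested genes. Other lists shifted likewise. The effect was higher in Tfh-like cells for 83 of 89 cytosolic ribosomal proteins (median 0.20), of which 5 passed. It was so for 64 of 78 mitochondrial ribosomal proteins (median 0.24). Of 9 nuclear regulators, 7 went the other way (median -0.091). In recently stimulated-like cells alone, the median genotype difference was -0.28 for mitochondrial and -0.16 for cytosolic ribosomal proteins. The clusters within both classes were mixed in different proportions in mutant and WT libraries, cluster 0 being a larger part of mutant Tfh-like cells and cluster 2 a smaller part of mutant recently stimulated-like cells. The part of that mix in the interaction was not tested.

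The rest of the pathway gave no call over all kept T cells by edgeR in any list. Among 8 electron carriers and partners the median log2 fold change was -0.26, and Cycs, the cytochrome c that shuttles electrons from complex III to complex IV, had 145 and 122 CPM in mutant libraries against 193 and 155 CPM in WT libraries (unadjusted p = 0.0261, edgeR adjusted p = 0.322). Of 37 tested assembly factors outside the symbol rule, 28 were below 0 with a median of -0.11. Of 78 mitochondrial ribosomal proteins, 69 were below 0 with a median of -0.13, and of 89 tested cytosolic ribosomal proteins 76 were below 0 with a median of -0.18. Of 13 citric acid cycle enzymes 9 were below 0 (median -0.094), and Idh3a, a subunit of NAD-dependent isocitrate dehydrogenase, had 33.9 and 25.9 CPM in mutant libraries against 46.4 and 42.3 CPM in WT libraries (edgeR adjusted p = 0.181). The 9 tested nuclear regulators of these genes leaned the other way, with 7 above 0 and a median of 0.12, and the 11 genes of mtDNA transcription and replication had a median of -0.010.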

How the data were processed

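The deposited matrices hold UMI counts per gene and cell barcode, which the authors obtained from Cell Ranger 6.0.0 (build mm10); Seurat 4 is also named, per the submitters' processing notes; how reads with several matches were counted is not given in the sources used here. Barcodes (4803) were kept with at least 500 genes and at most 10% mitochondrial UMIs, and 31 Scrublet doublets were left out. Cells were clustered with scanpy 1.11.5 and leidenalg 0.10.2 (30 components, 15 neighbours, resolution 0.8, seed 0). The clustering used 2000 variable genes, less the members, mt-, ribosomal, receptor and predicted genes. Clusters with at least 3 marker genes of a list at 2-fold among their 50 leading genes were named. That list also had to hold more of the first 10 leading genes than any other list. Epithelial and B cell clusters (149 cells) were left out, leaving 2928 cells. UMIs were summed per library and tested with edgeR 4.0.16 (TMM, filterByExpr, quasi-likelihood, Benjamini-Hochberg over all genes), mutant minus WT, with DESeq2 1.42.0 as an alternative. The fits were tested on simulated data. Genotype levels are TMM-scaled CPM, and values by state are plain CPM. Coordinates are GENCODE vM21 on GRCm38. Members and lists were chosen with earlier results of these data known. Named genes are members called in any test (none), the 3 most abundant of each complex, the most positive and most negative of each complex, the one varying most across states, all mt-encoded genes, and listed isoforms; Ndufs8, Sdhaf1, Cycs and Idh3a were named after their values were seen. Precision is limited by 2 libraries a group, and limits for 0 counts cover counting error only. Promoters were chosen as described beside them. The antibody tags were not used.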

Additional observations from a re-analysis of the deposited data

Results flagged for a closer look

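Sdhaf1, an assembly factor of complex II outside the symbol rule, was picked out because its genotype effect differed between Tfh-like and recently stimulated-like cells by the interaction test: the log2 difference was 1.45 ± 0.28 (SE, edgeR adjusted p = 0.00254). In Tfh-like cells it had 76.4 and 45.0 CPM in mutant libraries against 48.4 and 48.7 CPM in WT libraries, and in recently stimulated-like cells 43.2 and 18.2 CPM in mutant libraries against 83.2 and 57.2 CPM in WT libraries. The call was lost without mutant 1 (log2 difference 1.88 ± 0.63, adjusted p = 0.231) and without WT 1 (1.13 ± 0.39, adjusted p = 0.591), and mutant 2 contributed 27 and 6 UMIs in the 2 classes.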

How the results depend on the processing

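No member passed over all kept T cells or in the 4 states under another scaling, DESeq2, no filter or the replicate block. The other caps, doublets kept, equal cluster shares and other cell sets were run over all kept T cells alone, besides cluster 0 and cluster 1 each alone, and called no member; the interaction was refitted only without each library. Leaving out 1 library gave 0 to 2 called members over all kept T cells, 0 to 1 in recently stimulated-like cells and 0 to 1 in the interaction. For mt-encoded subunits the count was 2 with no filter, 1 at a cap of 20% and 1 with equal cluster shares over all kept T cells, 1 with no filter and 1 with the replicate block in Tfh-like cells, and 1 with the replicate block in cluster 3; leaving out 1 library gave 0 to 1 over all kept T cells, in Tfh-like cells, in cluster 3 and in cluster 6. The replicate block gave 0 called members. Same-numbered libraries did not deviate together (correlation of 0.046 for mutant 1 with WT 1), so the numbers were not taken as pairs. With 2 libraries a group, the value for mutant 1 with WT 2 (-0.046) is fixed by the first and adds nothing to it. With equal cluster shares mt-Atp6 and mt-Cytb turned to -0.0088 and -0.027. Over the fits that leave out 1 library, log2 values ran from -0.013 to 0.20 for Ndufv3, -0.16 to 0.22 for mt-Atp6, -0.072 to 0.23 for mt-Co2, -0.085 to 0.28 for mt-Co3, -0.13 to 0.20 for mt-Cytb, -0.056 to 0.33 for mt-Nd1 and -0.031 to 0.38 for mt-Nd4l. The ratio of the highest to the lowest state was 1.39 without mt-encoded and ribosomal UMIs (cluster 6 over cluster 3), 1.52 in mutant 2 alone and 1.30 at Leiden resolution 0.4, where a Tfh-like cluster was again the highest; the cause was not tested. Over all genes and kept T cells, edgeR called 72 higher and 51 lower, against 18 and 24 by DESeq2, 211 and 163 with no filter and 228 and 162 without mutant 2; with the epithelial cluster kept edgeR called 0, and 967 had an unadjusted p under 0.05. In all, 498 of 537 alternative values kept their side of the threshold and direction, or stayed within the spread. The number of cells limits mutant 2 most, with 177 kept cells and 1604770 UMIs in all.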
